A study of Mus musculus with 6 samples.

Results

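The Toll-like receptors and their nearest partners were followed through bulk RNA sequencing of whole mouse aortas. The set holds the receptor genes Tlr1, Tlr2, Tlr3, Tlr4, Tlr6, Tlr7, Tlr8 and Tlr13, the co-receptor gene Cd14 and the adaptor gene Myd88, chosen by name as 10 of the 18749 gene rows in the files. All 10 were among the 14466 genes that passed the filter on low counts. Aortas came from 3 Apoe-/- recipients of Apoe-/-Sept2C111A donor marrow (Sept2C111A recipients) and 3 Apoe-/- recipients of Apoe-/- donor marrow (Apoe recipients), with 1 library per aorta. Hosts and donors of both groups carry the Apoe-/- genotype, and both groups had 28 days of angiotensin II. Sept2C111A is an altered septin-2, by its name with alanine in place of a cysteine, and it was carried by the transplanted marrow, so that cells of the vessel wall other than blood-derived ones kept the host's septin-2. Age, sex and the extent of donor engraftment are stated nowhere in the labels, and donor marrow replaces blood-forming cells alone. The comparison asks how aortic transcripts depend on septin-2 in marrow-derived cells, and the series title names macrophages and aortic aneurysm. The design text gives 3 mice per group, so p-values measure the spread between these animals.

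Toll-like receptors are membrane proteins with which innate immune cells, and to a lesser extent vascular cells, sense microbial molecules and products of damaged tissue. Tlr2 pairs with Tlr1 or Tlr6 at the cell surface to bind lipopeptides, and Tlr4, with the secreted protein encoded by Ly96, binds lipopolysaccharide delivered by Cd14. Tlr3, Tlr7, Tlr8 and Tlr13 are held in endosomes and sense nucleic acids. All of these receptors except Tlr3 signal through Myd88 to the IRAK kinases and NF-kB, whereas Tlr3 uses the adaptor encoded by Ticam1. In the aorta, macrophages, neutrophils, smooth muscle cells and endothelial cells can each carry members of the family.

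Library totals ran from 17082719 to 20494928 expected counts, which put 17.9 to 20.2 reads behind 1 CPM, the unit used below for counts scaled to library size after TMM adjustment. Smooth muscle markers were abundant in all 6 libraries, with 14980 to 22650 summed CPM in Sept2C111A recipients and 5626 to 17670 in Apoe recipients, which fits the aortic label. The Apoe gene, disrupted in all animals, had 356, 246 and 532 counts in Sept2C111A libraries 1, 2 and 3, against 171, 268 and 242 counts in Apoe libraries 1, 2 and 3. Septin2 averaged 309.8 ± 35.8 CPM in Sept2C111A recipients and 313 ± 23.3 CPM in Apoe recipients (SD, n = 3 each). An exchange of 1 amino acid leaves no trace in such totals. Apoe libraries 1 and 3 stood apart. Library 1 held 2915 summed CPM of the 7 tested neutrophil markers, against 16.3 to 28.8 in the Sept2C111A libraries and 89.2 and 332 in Apoe libraries 2 and 3, and library 3 had the lowest smooth muscle sum of the 6. In whole tissue, fewer cells of a type and less RNA per cell cannot be told apart.

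Tlr1 (chr5:64924679-64933563, minus strand, mm10) and Tlr6 (chr5:64952031-64960097, minus strand) are neighbours on chromosome 5, and their counts were fractional in all 6 libraries. Counts of Tlr7 were fractional in 5 libraries, and those of the other 7 genes were whole numbers. The longest run of letters that their longest GENCODE vM21 transcripts share is 229 bases long. It lies wholly in coding sequence, in the last exon of each gene, at chr5:64925537-64925765 in Tlr1 and chr5:64953828-64954056 in Tlr6. It is shown because a read that falls inside it cannot be given to either gene by its letters:

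Tlr1 and Tlr6 shared run: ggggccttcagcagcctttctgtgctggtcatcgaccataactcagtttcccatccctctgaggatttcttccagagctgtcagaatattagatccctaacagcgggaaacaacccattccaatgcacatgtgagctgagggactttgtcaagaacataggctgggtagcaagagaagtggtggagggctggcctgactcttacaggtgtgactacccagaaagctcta

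Of all 100-base windows, 8.85% in the Tlr1 transcript and 7.24% in the Tlr6 transcript also occurred in the other gene. No 100-base window of Tlr2, Tlr4, Tlr7, Tlr8, Tlr13 or Cd14 occurred in a transcript of another gene. In Myd88, 5.3% of windows also lay in Acaa1a, which overlaps it on the opposite strand, and in Tlr3 0.418% lay in the antisense gene Gm45542. Counts of Myd88 and Tlr3 were whole numbers in all 6 libraries, and the strand setting of the counting is not stated.

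Promoter letters from RefSeq (build GRCm38.p6, the same assembly as mm10) were found for 7 of the 10 genes, namely Tlr1, Tlr2, Tlr3, Tlr6, Tlr8, Tlr13 and Myd88. The 4 shown belong to the pair whose levels followed each other most closely across the libraries, Tlr2 and Tlr6, and to the pair that one of the tests called, Tlr8 and Tlr13. Letters run 5′ to 3′ on the gene's strand and stop at the first annotated exon base. Capitals mark matches to any of 4 motifs, searched on both strands of the 250 bases before the RefSeq start: GGGNNTTCC for NF-kB, GAGGAAGT for PU.1, GAAA, any 2 bases and GAAA for interferon response elements and TATAAA for the TATA box.

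Tlr2, chr3:83841768-83841858, minus strand: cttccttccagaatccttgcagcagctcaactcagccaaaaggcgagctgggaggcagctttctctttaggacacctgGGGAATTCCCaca
Tlr6, chr5:64960098-64960298, minus strand: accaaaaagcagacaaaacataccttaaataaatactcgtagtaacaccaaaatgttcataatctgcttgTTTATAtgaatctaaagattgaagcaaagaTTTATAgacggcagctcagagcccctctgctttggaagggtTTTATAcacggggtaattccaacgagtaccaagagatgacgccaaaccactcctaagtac
Tlr8, chrX:167264330-167264579, minus strand: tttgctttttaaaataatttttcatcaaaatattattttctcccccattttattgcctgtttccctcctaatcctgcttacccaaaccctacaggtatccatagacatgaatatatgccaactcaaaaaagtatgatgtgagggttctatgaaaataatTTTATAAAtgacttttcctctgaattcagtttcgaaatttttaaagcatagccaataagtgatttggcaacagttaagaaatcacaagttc
Tlr13, chrX:106143025-106143203, plus strand: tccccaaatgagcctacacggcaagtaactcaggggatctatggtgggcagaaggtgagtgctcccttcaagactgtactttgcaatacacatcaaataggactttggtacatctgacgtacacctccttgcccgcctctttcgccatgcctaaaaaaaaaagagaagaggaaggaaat

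The NF-kB letters stood in the Tlr2 window alone among the 9 windows of the 7 genes, where matches on both strands overlap, and 4.98% of the 32851 promoter windows of this length in the table hold them. TATAAA was matched at 3 places in the Tlr6 window shown, each on the strand opposite to the gene. Overlapping matches on both strands stood in Tlr8, and Myd88 also held matches, beside 12.4% of all windows. The PU.1 letters were found in Tlr1 (2.44% of all windows), and the interferon letters in Myd88 and in a second Tlr6 window (2.98% of all windows). The Tlr13 window held none of the 4. These are matches of letters and not measured binding sites.

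Of the 10 genes, 9 had a lower fitted level in Sept2C111A recipients and Tlr3 was the exception, where 49.9% of the 14466 tested genes had a lower one. The set was chosen with earlier results of these data known, so its counts beside those of all genes are descriptions. The median log2 fold change (Sept2C111A recipients minus Apoe recipients, edgeR) was -0.89 over the 10 genes and 0.00 over all tested genes. None of the 10 passed edgeR's quasi-likelihood test after Benjamini-Hochberg adjustment over all tested genes at a threshold of 0.05, and neither did any other gene, so that the share called was 0%. At an unadjusted p under 0.05 edgeR gave 6 of the 10, all lower, namely Tlr2, Tlr6, Tlr8, Tlr13, Cd14 and Myd88, beside 8.83% of all tested genes that were lower at that level and 15% in either direction. DESeq2, run as another test, called 2 of the 10, Tlr8 and Tlr13, both lower, at an adjusted p under 0.05. It called 3.87% of 14721 genes, 2.89% lower and 0.985% higher. That count rested on single libraries. Without Apoe library 1 it was again Tlr8 and Tlr13 (1.72% of genes lower), and without Apoe library 2 it was 6, namely Tlr2, Tlr6, Tlr8, Tlr13, Cd14 and Myd88 (6.65%). It was Tlr13 alone without Apoe library 3 (1.82%) or Sept2C111A library 2 (2.71%), Tlr1, Tlr8 and Tlr13 without Sept2C111A library 1 (1.43%), and none of the 10 without Sept2C111A library 3 (0.636%). The 3 Sept2C111A libraries lay wholly below the 3 Apoe libraries for 5 of the 10 genes, namely Tlr2, Tlr6, Tlr8, Tlr13 and Myd88, as they did for 11.9% of all tested genes. Without Apoe library 1 the 5 were joined by Tlr7 (17.7% of all tested genes), without Apoe library 2 by Tlr1 and Cd14 (20.1%), and without Apoe library 3 the count was again 5 (15.3%). The median over the 10 genes was -0.47 without Apoe library 1.

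**Figure D1:**
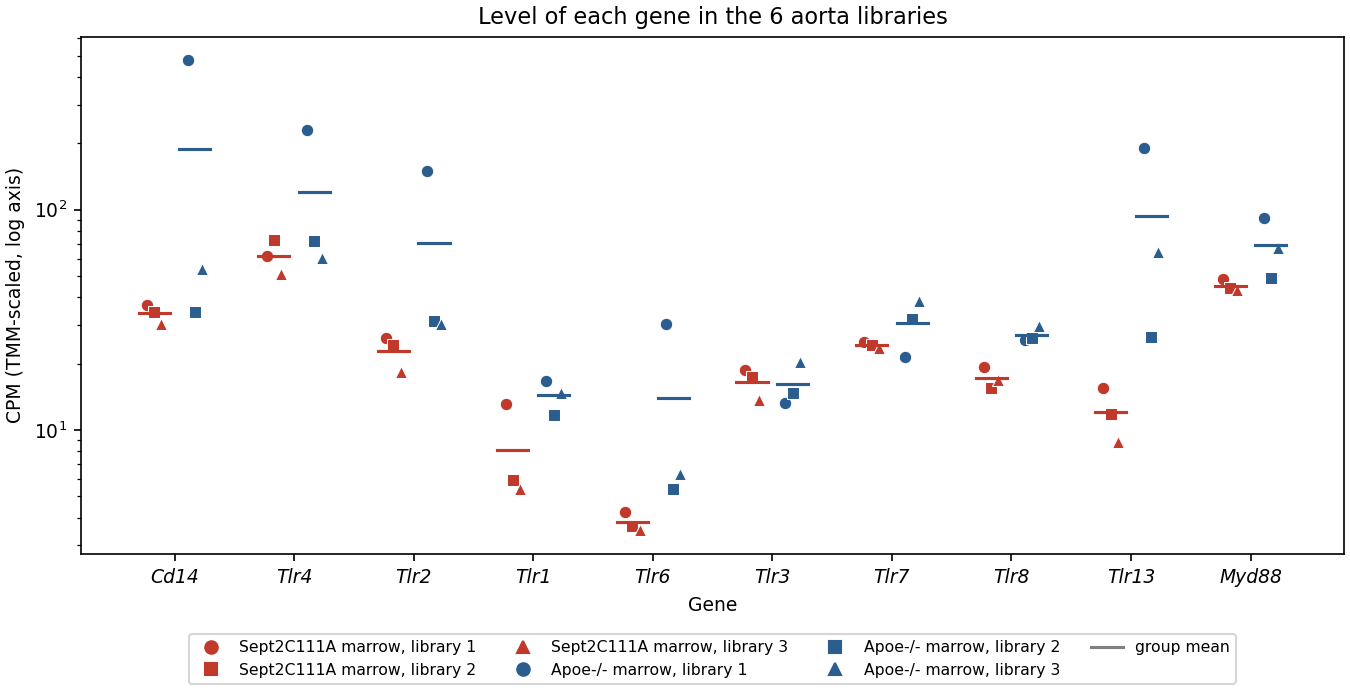
CPM of each gene (log axis) in the 3 libraries of Sept2C111A recipients (red, left) and the 3 of Apoe recipients (blue, right), with horizontal lines for group means. Apoe library 1 (blue circles) is the highest of the 6 for 7 of the 10 genes, and reaches 477 CPM for Cd14.

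Cd14 (chr18:36725067-36726798, minus strand), the co-receptor that hands lipopolysaccharide to Tlr4, was at 37.1, 34.3 and 30.4 CPM in Sept2C111A libraries 1, 2 and 3, against 477, 34.4 and 53.9 CPM in Apoe libraries 1, 2 and 3. Apoe library 1 was far above the other 5, and Apoe library 2 lay inside the range of the Sept2C111A libraries, so the groups overlapped. The mean was 33.9 ± 3.35 CPM in Sept2C111A recipients and 188 ± 250 CPM in Apoe recipients (SD, n = 3 each), and the log2 fold change of -2.47 (SE 1.00) had an edgeR adjusted p of 0.331. Without Apoe library 1 it was -0.37 (SE 0.22).

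Tlr4 (chr4:66827584-66930284, plus strand), the lipopolysaccharide receptor, was at 61.6, 72.8 and 50.9 CPM in Sept2C111A libraries 1, 2 and 3, against 229, 72.0 and 60.4 CPM in Apoe libraries 1, 2 and 3. With Apoe library 1 set aside, the other 5 libraries were intermixed. The log2 fold change was -0.97 (SE 0.52, edgeR adjusted p = 0.397) with all libraries and -0.094 (SE 0.19) without Apoe library 1. Ly96, which encodes the protein that completes the Tlr4 receptor, averaged 4.04 ± 0.479 CPM in Sept2C111A recipients and 4.74 ± 1.17 CPM in Apoe recipients, a log2 fold change of -0.23 (SE 0.27).

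Tlr2 (chr3:83836272-83841767, minus strand), the common partner of the lipopeptide receptors, was at 26.1, 24.3 and 18.4 CPM in Sept2C111A libraries 1, 2 and 3, against 150.3, 31.3 and 30.4 CPM in Apoe libraries 1, 2 and 3. The groups did not overlap, but the gap between the highest Sept2C111A library and the lowest Apoe library was small beside the distance of Apoe library 1 from the rest. The log2 fold change of -1.62 (SE 0.66) had an edgeR adjusted p of 0.331, and without Apoe library 1 it was -0.42 (SE 0.18).

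Tlr6, which joins Tlr2 for diacylated lipopeptides, was at 4.26, 3.66 and 3.52 CPM in Sept2C111A libraries 1, 2 and 3, against 30.3, 5.38 and 6.32 CPM in Apoe libraries 1, 2 and 3. Here too the groups were apart and Apoe library 1 exceeded the other 5. Its log2 fold change of -1.88 (SE 0.71) had an edgeR adjusted p of 0.321 and was -0.61 (SE 0.25) without Apoe library 1.

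Tlr1, the partner of Tlr2 for triacylated lipopeptides, was at 13.1, 5.96 and 5.38 CPM in Sept2C111A libraries 1, 2 and 3, against 16.7, 11.7 and 14.7 CPM in Apoe libraries 1, 2 and 3. Sept2C111A library 1 lay inside the Apoe range while the other 2 Sept2C111A libraries lay below it, and the log2 fold change was -0.82 (SE 0.38, edgeR adjusted p = 0.359). The sum of Tlr1 and Tlr6, which does not depend on how shared reads were divided between them, averaged 12.0 ± 4.68 CPM in Sept2C111A recipients and 28.4 ± 16.2 CPM in Apoe recipients, and its groups overlapped, with 17.3 CPM in Sept2C111A library 1 and 17.1 CPM in Apoe library 2.

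Among the endosomal receptors, Tlr13 (chrX:106143204-106160493, plus strand), which in mice senses bacterial ribosomal RNA, had the largest difference of the 10 genes. Its level was 15.5, 11.8 and 8.79 CPM in Sept2C111A libraries 1, 2 and 3, against 191, 26.4 and 64.1 CPM in Apoe libraries 1, 2 and 3. Every Apoe library exceeded every Sept2C111A library, and the Apoe libraries differed widely among themselves. The mean was 12.0 ± 3.36 CPM in Sept2C111A recipients and 93.9 ± 86.3 CPM in Apoe recipients, 7.81-fold lower in Sept2C111A recipients, and the fitted log2 fold change was -2.96 (SE 0.73). The edgeR adjusted p was 0.316, a value shared with other genes and the smallest reached by any, and the DESeq2 adjusted p was 0.00148. Without Apoe library 1 the log2 fold change was -1.90 (SE 0.43), and DESeq2 called the gene again (adjusted p = 0.00807). With each of the 6 libraries omitted in turn, DESeq2 called Tlr13 in 5 cases, all but the omission of Sept2C111A library 3.

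Tlr8 (chrX:167242696-167264329, minus strand), whose human counterpart senses single-stranded RNA, showed a smaller difference with little spread. It was at 19.3, 15.5 and 16.9 CPM in Sept2C111A libraries 1, 2 and 3, against 25.6, 26.1 and 29.5 CPM in Apoe libraries 1, 2 and 3. The groups were apart, and Apoe library 1 was the lowest of its group and no outlier. The log2 fold change of -0.65 (SE 0.14) ranked 102 among all tested genes by p and had an edgeR adjusted p of 0.316 and a DESeq2 adjusted p of 0.00991. Without Apoe library 1 it was -0.68 (SE 0.15), with a DESeq2 adjusted p of 0.0304. With each of the 6 libraries omitted in turn, the DESeq2 call for Tlr8 held in 3 cases, those without Apoe library 1, Apoe library 2 or Sept2C111A library 1.

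Tlr7 (chrX:167304929-167330558, minus strand), a receptor for single-stranded RNA that neighbours Tlr8, was at 25.1, 24.3 and 23.6 CPM in Sept2C111A libraries 1, 2 and 3, against 21.4, 32.0 and 38.4 CPM in Apoe libraries 1, 2 and 3. Apoe library 1, highest for most of the set, was the lowest of all 6 for Tlr7, and the groups overlapped through it. The log2 fold change was -0.33 (SE 0.22, edgeR adjusted p = 0.466), and -0.52 (SE 0.13) without that library.

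Tlr3 (chr8:45395665-45411080, minus strand), the receptor for double-stranded RNA, was at 18.7, 17.3 and 13.6 CPM in Sept2C111A libraries 1, 2 and 3, against 13.2, 14.7 and 20.4 CPM in Apoe libraries 1, 2 and 3. The libraries were intermixed, with Apoe library 1 again the lowest, and the log2 fold change was 0.038 (SE 0.22, edgeR adjusted p = 0.941), whose sign changed when single libraries were left out. Its adaptor gene Ticam1 averaged 18.6 ± 1.37 CPM in Sept2C111A recipients and 21.6 ± 2.87 CPM in Apoe recipients, a log2 fold change of -0.22 (SE 0.15).

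Myd88 (chr9:119335934-119341411, minus strand), the adaptor of the other receptors, was at 48.3, 44.3 and 43.0 CPM in Sept2C111A libraries 1, 2 and 3, against 91.8, 48.9 and 67.0 CPM in Apoe libraries 1, 2 and 3. The groups were apart by a narrow margin between Sept2C111A library 1 and Apoe library 2. The log2 fold change was -0.62 (SE 0.23, edgeR adjusted p = 0.321), and -0.35 (SE 0.16) without Apoe library 1. Acaa1a, the peroxisomal thiolase gene that overlaps Myd88 on the opposite strand, averaged 82.7 ± 8.19 CPM in Sept2C111A recipients and 65.2 ± 7.06 CPM in Apoe recipients, so its difference ran the other way.

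**Figure D2:**
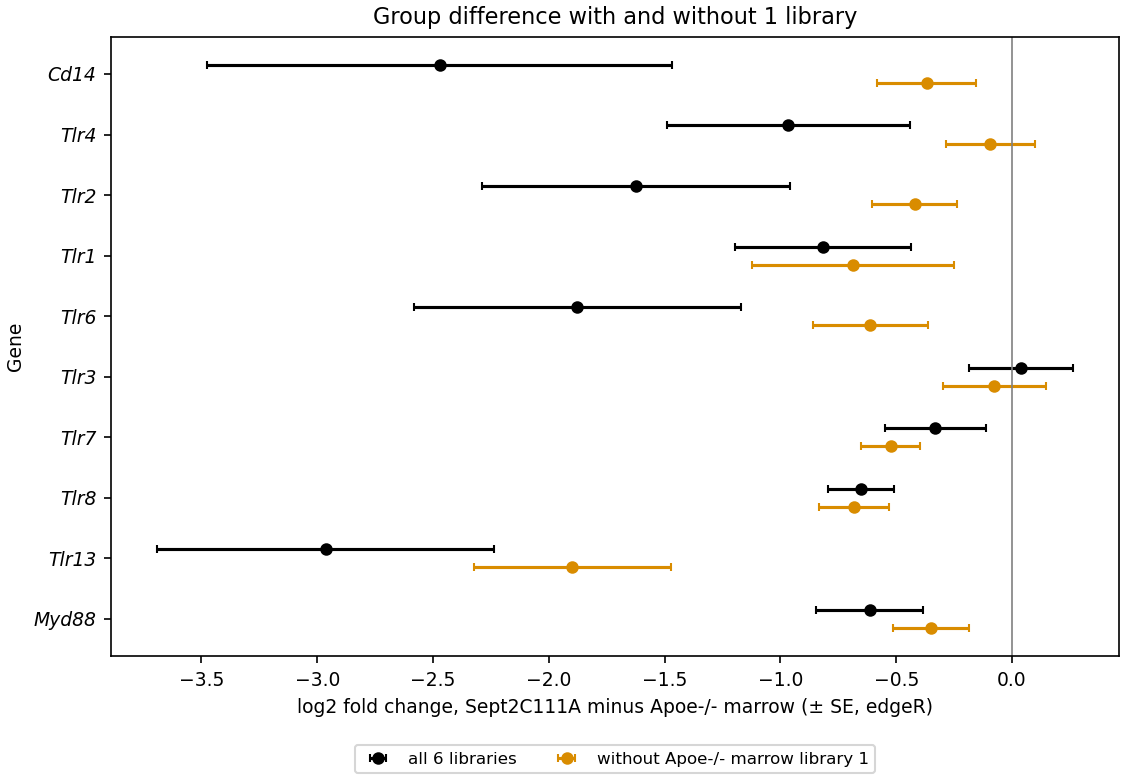
Log2 fold change of each gene, Sept2C111A recipients minus Apoe recipients, with its SE from edgeR, using all 6 libraries (black) and without Apoe library 1 (orange). Cd14 moves to -0.37 and Tlr4 to -0.094 without that library, while Tlr8 stays near -0.68 and Tlr13 stays at -1.90.

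Expressed per kilobase of exon, Cd14 and Myd88 had the highest group means of the set in both groups. In Sept2C111A recipients Cd14 was at 19.6 ± 1.93 and Myd88 at 17.5 ± 1.07 CPM per kilobase, with ranges over libraries that overlapped. Tlr4 at 11.1 ± 1.97, Tlr2 at 7.60 ± 1.33, Tlr7 at 5.96 ± 0.177, Tlr8 at 4.80 ± 0.531, Tlr3 at 3.18 ± 0.505, Tlr13 at 2.79 ± 0.781, Tlr1 at 2.43 ± 1.28 and Tlr6 at 1.02 ± 0.106 CPM per kilobase followed. Among these neighbours the ranges of Tlr2 and Tlr7, of Tlr3 and Tlr13 and of Tlr13 and Tlr1 overlapped, and the others did not. In Apoe recipients Cd14 was at 109 ± 144, Myd88 at 26.9 ± 8.35, Tlr2 at 23.4 ± 22.9, Tlr13 at 21.8 ± 20.0 and Tlr4 at 21.7 ± 16.99 CPM per kilobase, with ranges that overlapped between neighbours in this order. Tlr8 at 7.55 ± 0.591, Tlr7 at 7.49 ± 2.10, Tlr1 at 4.29 ± 0.742, Tlr6 at 3.76 ± 3.79 and Tlr3 at 3.10 ± 0.729 CPM per kilobase completed the order, in which Tlr4 against Tlr8 and Tlr7 against Tlr1 were the only neighbours without overlap. By group mean, Tlr13 thus had rank 8 of the 10 genes in Sept2C111A recipients and rank 4 in Apoe recipients on this scale. The Apoe mean of Tlr13 came from 191, 26.4 and 64.1 CPM in Apoe libraries 1, 2 and 3. Its range overlapped those of its neighbours Tlr2 and Tlr4 in this order.

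Across the 6 libraries, levels were compared as log2(CPM + 1) minus a gene's own mean. Apoe library 1 was the highest for 7 genes and the lowest for 2, and Sept2C111A library 3 was the lowest for 7. The spread among Apoe libraries reached 3.75 for Cd14, 2.81 for Tlr13, 2.29 for Tlr6, 2.27 for Tlr2 and 1.91 for Tlr4 on this log2 scale, and was 0.20 for Tlr8. Among Sept2C111A libraries it ran from 0.08 for Tlr7 to 1.14 for Tlr1. The most alike pair was Tlr2 and Tlr6, with a root mean square difference of 0.13 in log2 level over the 6 libraries, and Tlr3 and Tlr13 were the least alike at 1.54.

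The genes outside the set with the most similar profiles, out of 12455 candidates and by the same measure, are given for 9 of the 10 genes. For Tlr13 they were Fgd3, an exchange factor gene, at 0.20 and Olr1, which encodes the oxidised LDL receptor LOX-1, at 0.23. For Cd14 the nearest were Tgm1, a transglutaminase gene, at 0.14 and Trim30b at 0.18. Tlr1 had Dock2, a Rac exchange factor of blood cells, at 0.12 and Pik3cd, a leukocyte PI3 kinase subunit, at 0.17. For Tlr2 they were B3gnt5, a glycosyltransferase gene, at 0.06 and Oas3, an oligoadenylate synthetase gene, at 0.12, and for Tlr4 they were Skil, a co-repressor of SMAD proteins, and Rnf180 at 0.12 and 0.13. Ppm1h and Slc36a1 were nearest to Tlr8, Pcdhga10 and Zfand4 to Tlr7, Madd and Enc1 to Myd88, and Piwil2 and Hrh2 to Tlr6, at 0.0624 to 0.111. With 6 libraries and this many candidates, close matches are easily found, so these names are descriptions.

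Markers of other cell types moved with several of these genes. All 7 tested neutrophil markers had a lower level in Sept2C111A recipients (median -5.36 on the log2 scale, and -2.64 without Apoe library 1), and all 7 had groups apart, as 11.9% of all tested genes did in this direction. Summed, they were at 16.3 to 28.8 CPM in Sept2C111A recipients and 89.2 to 2915 CPM in Apoe recipients. Csf3r, the receptor for granulocyte colony-stimulating factor, was at 18.7, 9.37 and 11.6 CPM in Sept2C111A libraries 1, 2 and 3, against 1033, 49.5 and 111 CPM in Apoe libraries 1, 2 and 3. Apoe library 1 was thus the highest for Csf3r, as it was for Cd14, Tlr2, Tlr4, Tlr6 and Tlr13. That library also had the highest sums of the monocyte, dendritic cell, B cell, platelet and erythroid lists below. The macrophage sum was highest in Apoe library 3. Camp, Ngp and Mpo, granule genes of immature neutrophils, were at or near 0, with at most 0.643 CPM in any library. The 5 monocyte markers summed to 61.0 to 112 CPM in Sept2C111A recipients and 92.6 to 489 CPM in Apoe recipients. All 5 were lower (median -1.72 on the log2 scale), 2 of them with groups apart. Without Apoe library 1, 4 of the monocyte markers were lower and 1 higher (median -1.92). The 12 macrophage markers summed to 2070 to 3096 CPM in Sept2C111A recipients and 2872 to 4249 CPM in Apoe recipients, 9 of 12 lower (median -0.22 on the log2 scale, -0.50 without Apoe library 1 and -0.025 without Apoe library 3), and none of the 12 was at 0. The 4 B cell markers were lower (median -2.07, and -1.27 without Apoe library 1). They summed to 1.78 to 7.04 CPM in Sept2C111A recipients and 8.31 to 28.7 CPM in Apoe recipients. The 4 platelet markers were lower (median -2.10), at 6.95 to 9.49 summed CPM in Sept2C111A recipients and 13.4 to 54.1 in Apoe recipients. Gp1ba among them differed by only -0.075 (SE 0.25) on the log2 scale. Without Apoe library 1, 3 of the 4 platelet markers were lower and 1 higher (median -1.515). The 5 erythroid markers had a lower fitted level (median -1.33, and -0.61 without Apoe library 1), but the groups overlapped for all 5. They summed to 201.6 to 707.7 CPM in Sept2C111A recipients and 70.59 to 1683 CPM in Apoe recipients. The lowest erythroid sum of all libraries was that of Apoe library 2. Other lists ran the other way, with all 4 adipocyte markers (median 1.15), all 5 smooth muscle markers (median 0.36) and 4 of 5 fibroblast markers (median 0.30) at a higher level in Sept2C111A recipients. The dendritic cell list was mixed, with 5 of 7 markers higher (median 0.27). Flt3, the only dendritic cell marker with groups apart, was lower (-0.95, SE 0.39). The 7 dendritic cell markers summed to 42.15 to 77.2 CPM in Sept2C111A recipients and 54.2 to 107.9 CPM in Apoe recipients. Of the endothelial markers 3 of 5 were lower (median -0.19) and of the T cell markers 2 of 3 (median -0.64). The Apoe library with the lowest smooth muscle and adipocyte levels was library 3, and without it the median was 0.033 for smooth muscle, 0.71 for adipocyte, -0.22 for T cell and 0.37 for endothelial markers, the last with its direction turned. The part of these cell types in the differences above was not tested.

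Set against the mean log2 level of the macrophage list in the same library, Tlr13 was at -3.32 ± 0.16 in Sept2C111A recipients and -1.22 ± 1.50 in Apoe recipients. Tlr8 was at -2.81 ± 0.15 in Sept2C111A recipients and -2.54 ± 0.088 in Apoe recipients. The groups were apart for both, lower in Sept2C111A recipients, as for 2.41% of all tested genes on this scale. For Tlr8 the margin was narrow, between -2.638 in Sept2C111A library 3 and -2.613 in Apoe library 3. Tlr3 was at -2.87 ± 0.13 in Sept2C111A recipients and -3.27 ± 0.13 in Apoe recipients, apart in the other direction, as for 28% of all tested genes. For the other 7 genes the groups overlapped on this scale. Set against the neutrophil list, whose own level was so much lower in Sept2C111A recipients that 97.2% of all tested genes had their 3 Sept2C111A libraries above the Apoe libraries and 0.0415% below, 9 of the 10 genes lay above too, a share near that of all genes. Tlr13 overlapped, at 2.22 ± 0.28 in Sept2C111A recipients and 1.401 ± 0.69 in Apoe recipients. The macrophage list includes Itgam and Fcgr1, which neutrophils can also carry.

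**Figure D3:**
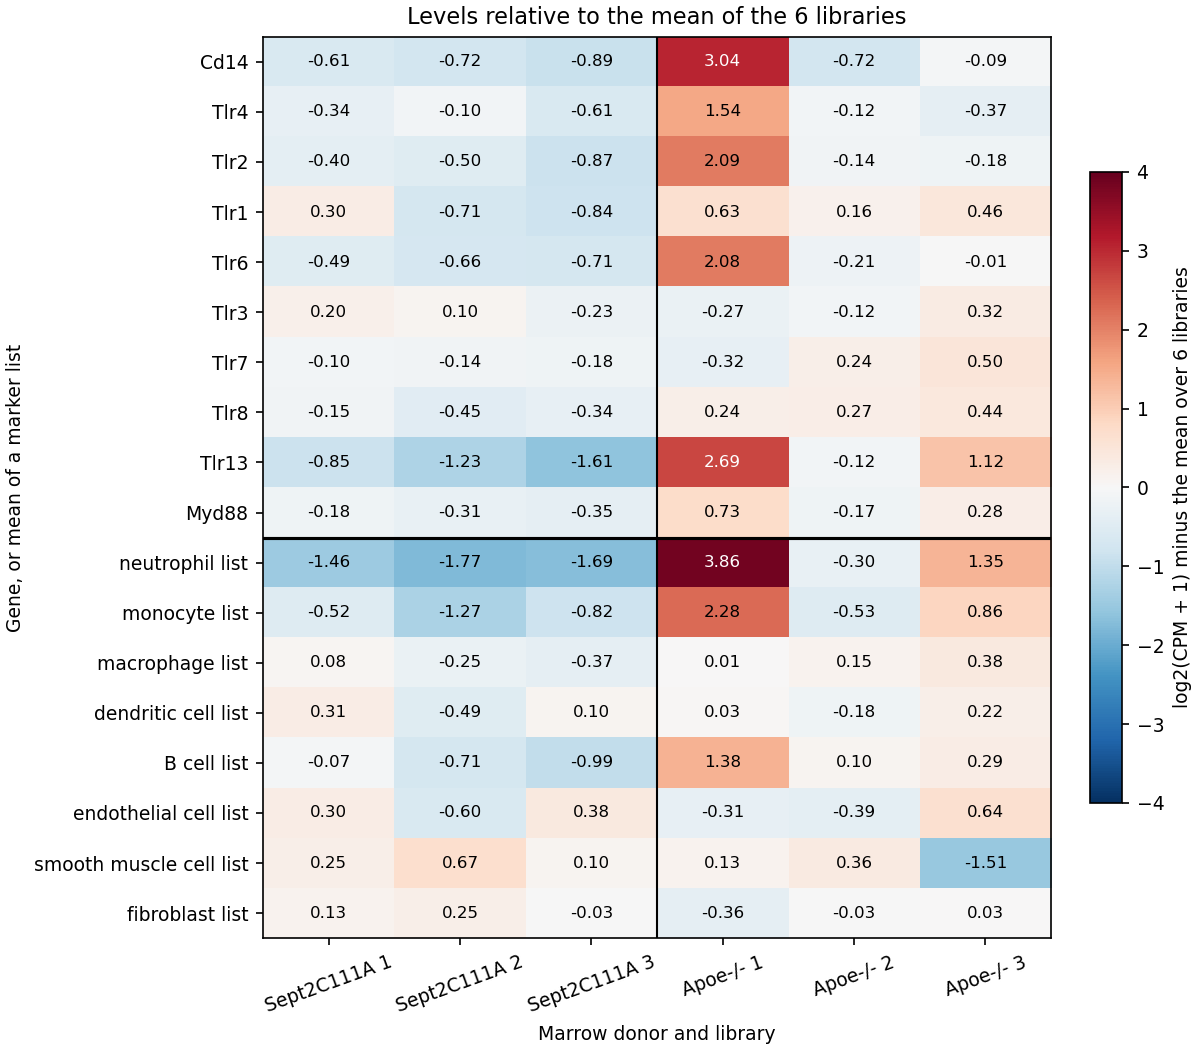
Level of each gene, and mean level of 8 cell type marker lists, as log2(CPM + 1) minus the mean over the 6 libraries, with Sept2C111A recipients in the left 3 columns and Apoe recipients in the right 3. In Apoe library 1 the neutrophil list stands at 3.86, Cd14 at 3.04 and Tlr13 at 2.69, while Tlr3 and Tlr7 are below 0 there.

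Among the remaining receptors of the family, Tlr5, the flagellin receptor, averaged 5.87 ± 2.00 CPM in Sept2C111A recipients and 12.0 ± 11.2 CPM in Apoe recipients, and Tlr9, which senses unmethylated CpG DNA, 2.63 ± 1.14 CPM in Sept2C111A recipients and 4.27 ± 0.898 CPM in Apoe recipients. Cd180, a Toll-related receptor of B cells, averaged 7.70 ± 3.03 CPM in Sept2C111A recipients and 10.3 ± 5.50 CPM in Apoe recipients, a difference of -0.41 (SE 0.48) on the log2 scale. Neither edgeR nor DESeq2 called these 3. Tlr12 did not pass edgeR's filter, and its counts of 43, 6 and 23 in Sept2C111A libraries 1, 2 and 3, against 5, 2 and 9 in Apoe libraries 1, 2 and 3, leaned the other way with overlapping groups and a DESeq2 adjusted p of 0.177. Tlr11 had at most 9 counts in any library.

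Of 12 receptor partners and chaperones, 9 were lower and 3 higher (median -0.19 on the log2 scale), and 0 were called by edgeR or DESeq2. The 3 of smallest p were Lgmn, an endosomal protease of receptor processing, Hsp90b1, the chaperone gp96 that folds most Toll-like receptors, and Ctss, encoding cathepsin S. Lgmn averaged 256 ± 46.5 CPM in Sept2C111A recipients and 460 ± 129 CPM in Apoe recipients, with groups apart, a difference of -0.85 (SE 0.26) on the log2 scale. Hsp90b1 was at -0.53 (SE 0.24) and Ctss at -0.70 (SE 0.32) on the same scale. Unc93b1, which escorts the endosomal receptors, was not among the 3 and was at -0.34 (SE 0.24).

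Among 5 adaptors 4 were lower, with a median of -0.24. DESeq2 called 1 of the 5 lower, beside 2.89% of all genes, namely Pik3ap1, the adaptor BCAP of lymphocytes and myeloid cells (adjusted p = 0.0331). It averaged 23.0 ± 8.25 CPM in Sept2C111A recipients and 54.1 ± 17.2 CPM in Apoe recipients. Its groups were apart, and the log2 fold change was -1.23 (SE 0.34). With each library omitted in turn it lay between -1.56 and -1.004 by edgeR, and DESeq2 called it in 2 of 6 cases, those without Apoe library 2 or Sept2C111A library 1. Tirap, which bridges Myd88 to Tlr2 and Tlr4, was at -0.44 (SE 0.34) on the log2 scale, and at 0.011 without Apoe library 1.

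Of 20 signalling kinases and ligases 17 were lower, by small amounts for most, with a median of -0.22 that was -0.023 without Apoe library 1. DESeq2 called Btk, a kinase of B cells and myeloid cells, and Tbk1, the kinase downstream of Tlr3 and Tlr4 that activates Irf3. Both were lower, beside 2.89% of all genes called lower. Btk averaged 6.999 ± 2.03 CPM in Sept2C111A recipients and 21.9 ± 12.3 CPM in Apoe recipients (DESeq2 adjusted p = 0.0262), and Tbk1 39.5 ± 0.136 CPM in Sept2C111A recipients and 51.3 ± 3.47 CPM in Apoe recipients (DESeq2 adjusted p = 0.0479). With each library omitted in turn, DESeq2 called either gene in 1 of 6 cases only, that without Apoe library 2, while edgeR's log2 fold changes ran from -1.97 to -1.11 for Btk and from -0.41 to -0.31 for Tbk1. Tab2, a partner of the kinase TAK1, averaged 94.2 ± 5.19 CPM in Sept2C111A recipients and 125 ± 17.4 CPM in Apoe recipients, with groups apart. On the log2 scale Irak4, the first kinase recruited by Myd88, differed by -0.53 (SE 0.22), Irak1 by 0.045 (SE 0.11) and the ligase gene Traf6 by -0.33 (SE 0.26), all with overlapping groups.

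Among 15 transcription factors 11 were lower, with a median of -0.19 and no call by either tool. The median was -0.014 without Apoe library 1, with 9 lower and 6 higher. Spi1, encoding PU.1 of myeloid cells and B cells, averaged 25.6 ± 6.02 CPM in Sept2C111A recipients and 67.9 ± 40.4 CPM in Apoe recipients, and its groups overlapped. Irf5, a factor that Myd88 signalling activates, differed by -1.14 (SE 0.41) and Nfkb2, an NF-kB subunit, by -0.42 (SE 0.15) on the log2 scale, each with groups apart. Rela, another NF-kB subunit, was at 0.043 (SE 0.13). Of 17 inhibitors 11 were lower and 6 higher, with a median of -0.095 that was 0.079 by limma-voom. DESeq2 called 1 of them lower, beside 2.89% of all genes, namely Tnfaip8l2, a restraint on immune cell activation. It averaged 8.42 ± 1.69 CPM in Sept2C111A recipients and 14.1 ± 1.41 CPM in Apoe recipients (DESeq2 adjusted p = 0.0471). That call was made in 1 of the 6 cases with a library omitted, that without Sept2C111A library 1. The feedback inhibitors Nfkbie and Socs3 differed by -0.89 (SE 0.31) and -1.81 (SE 0.74) on the log2 scale, both with overlapping groups. Socs3 was at 52.6, 30.7 and 47.2 CPM in Sept2C111A libraries 1, 2 and 3, against 322, 39.0 and 96.2 CPM in Apoe libraries 1, 2 and 3. With each library omitted in turn, edgeR gave -2.26 to -0.62 for Socs3 and -1.13 to -0.70 for Nfkbie.

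Cytokines and enzymes that Toll-like receptors can induce had the lowest median of the pathway lists. Of 27 listed, 21 were tested, 20 were lower and 1 was higher. The median was -1.66 on the log2 scale, -0.52 over the same genes without Apoe library 1, and -2.89 with a filter at a mean count of 50. That filter left out Tnf, Il1a, Ccl5 and Nos2, so the last median is over fewer genes. Without Apoe library 1, 18 of 22 tested were lower and 4 higher. With all libraries, the tested genes summed to 155.3 to 186.4 CPM in Sept2C111A recipients and 154.5 to 1915 CPM in Apoe recipients. Apoe library 2 had the lowest sum of the 6. edgeR called 0 after adjustment and DESeq2 called 5, all lower (2.89% of all genes), namely Cxcl2, a neutrophil chemokine, Ccl3, a macrophage chemokine, Cd80, a co-stimulatory ligand, Mefv, encoding pyrin, and Clec4e, the receptor Mincle. Cxcl2 was at 0.946, 1.43 and 1.60 CPM in Sept2C111A libraries 1, 2 and 3, against 309, 4.55 and 23.8 CPM in Apoe libraries 1, 2 and 3. The groups were apart, with Apoe library 1 far above the rest, and without it DESeq2 called Cxcl2 (adjusted p = 0.00126) and Mefv (adjusted p = 0.0158) but not Ccl3 (adjusted p = 0.411), Cd80 (adjusted p = 0.0889) or Clec4e (adjusted p = 0.081). Over the 6 omissions of a library, DESeq2 called Cxcl2 in 6, Mefv in 5, Clec4e in 4, Cd80 in 3 and Ccl3 in 1. Il1b, encoding interleukin-1 beta, averaged 5.54 ± 3.21 CPM in Sept2C111A recipients and 152 ± 213 CPM in Apoe recipients, with groups apart, a difference of -4.77 (SE 1.28) on the log2 scale. DESeq2 withheld its adjusted p with all libraries and gave 0.000807 without Apoe library 1. Saa3, an acute-phase gene, was the one with a higher mean, at 44.6 ± 34.5 CPM in Sept2C111A recipients and 20.9 ± 14.3 CPM in Apoe recipients, and its groups overlapped.

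Of 15 endogenous ligands and their makers 12 were tested, 8 lower and 4 higher. DESeq2 called S100a8, S100a9 and Has2 lower (2.89% of all genes) and Dcn higher (0.985% of all genes). S100a8 and S100a9, subunits of calprotectin that also stand in the neutrophil list, differed by -7.12 (SE 1.58) and -6.70 (SE 1.49) on the log2 scale. S100a8 was at 3.05, 0.995 and 1.45 CPM in Sept2C111A libraries 1, 2 and 3, against 650, 12.8 and 105 CPM in Apoe libraries 1, 2 and 3. With each library omitted in turn, edgeR gave -7.70 to -4.98 for S100a8 and -7.25 to -4.28 for S100a9. Has2, the synthase of hyaluronan, fragments of which can engage Tlr2 and Tlr4, was at 3.84, 7.79 and 3.34 CPM in Sept2C111A libraries 1, 2 and 3, against 18.8, 20.6 and 18.9 CPM in Apoe libraries 1, 2 and 3. The 3 Apoe libraries were close together and all above the Sept2C111A libraries, a difference of -1.96 (SE 0.35) on the log2 scale with a DESeq2 adjusted p of 0.000121. Without Apoe library 1 it was -1.98, with a DESeq2 adjusted p of 0.00294. Dcn, encoding the matrix proteoglycan decorin, averaged 3369 ± 1013 CPM in Sept2C111A recipients and 1582 ± 231 CPM in Apoe recipients (DESeq2 adjusted p = 0.00693), and was called by DESeq2 in 3 of the 6 omissions of a library. Tnc, encoding tenascin-C, and Bgn, encoding biglycan, differed by -0.68 (SE 0.44) and 0.059 (SE 0.47) on the log2 scale, with overlapping groups.

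**Figure D4:**
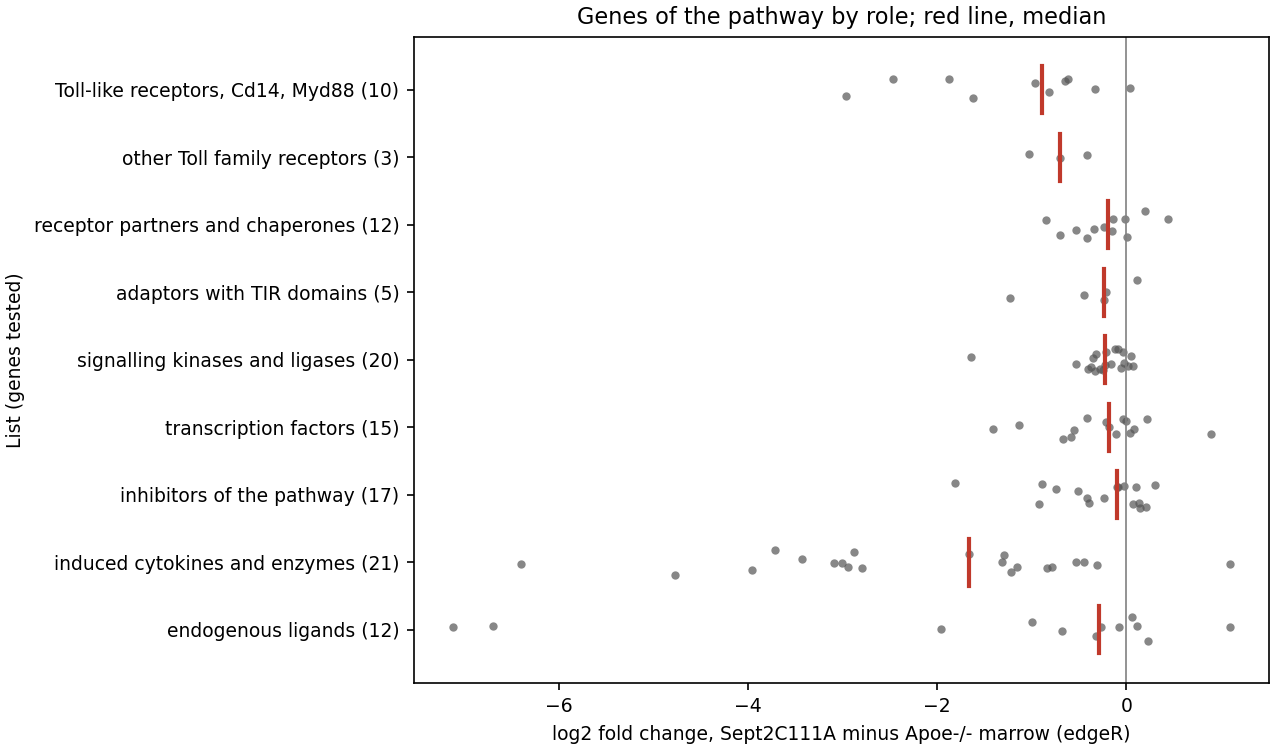
Log2 fold change, Sept2C111A recipients minus Apoe recipients, of every tested gene of the pathway, in rows by role with the number tested, and a red line at each median. The median is -0.89 for the Toll-like receptors with Cd14 and Myd88 and -1.66 for the induced cytokines and enzymes, and lies between -0.29 and -0.095 for partners, adaptors, kinases, transcription factors, inhibitors and ligands.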

How the data were processed

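RNA was extracted with TRIzol and captured on oligo(dT) beads, per the labels' protocols. Each library has 1 deposited file of expected counts by gene, without normalisation. Bowtie2, RSEM 1.3.1, DESeq2 1.4.5 and the build mm10 are listed per the submitters' processing notes, and annotation, filters and strand setting are not stated. In 1 Sept2C111A file the column heading carried another library number, and the sample GEO records was used.

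Counts were rounded to whole numbers. The main test was that of edgeR 4.0.16 under R 4.3.3 (filterByExpr with minimum count 10, TMM, two-sided quasi-likelihood F test, Benjamini-Hochberg over 14466 genes, threshold 0.05). DESeq2 1.42.0 and limma 3.58.1 (voom with quality weights) were alternatives. The SE is the fold change over the root of F. Both tests were checked on simulated counts with known changes: edgeR missed most of the smallest changes and made few false calls, and DESeq2 found more but made more false calls than its threshold allows. Coordinates and exon lengths come from GENCODE vM21. Named genes are the 10 members, the 3 of smallest p and all called genes of each list, and the 2 nearest profiles of each member (mean count of at least 50), of which those of Tlr3 are not reported here. Other named genes were chosen after their values were seen. The members and lists were chosen with earlier results of these data known. Replicates of a group were distinct libraries: chi-square over degrees of freedom ran from 50.2 to 237 between pairs. Log2 levels use a pseudocount of 1 CPM. Nothing says how mice were batched.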

Additional observations from a re-analysis of the deposited data

How the results depend on the processing

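Besides DESeq2, the alternatives were other scalings (RLE, library totals), other filters on low counts, limma-voom with library quality weights, a replicate block and leaving out each library. The number of genes called was 0 by edgeR and limma-voom under all of them and 570 by DESeq2. With Apoe library 1, 2 or 3 left out DESeq2 called 330, 1767 and 345, and with Sept2C111A library 1, 2 or 3 left out 241, 640 and 116. The number of the 10 genes called was 0 by edgeR and limma-voom and 2 by DESeq2, or 0 to 6 with a library left out. It was 6 without Apoe library 2, when DESeq2 called Tlr2, Tlr6, Tlr8, Tlr13, Cd14 and Myd88, 3 without Sept2C111A library 1, when it called Tlr1, Tlr8 and Tlr13, and 0 without Sept2C111A library 3. The number of the 10 genes lower with groups apart was 5 to 7 with a library left out, counted after seeing the data. The share of all tested genes then ran from 14.8% to 20.1%. Without Sept2C111A library 1, 2 or 3 the number was 7 (15.5% of all tested genes), 5 (19.1%) and 5 (14.8%). The median over the 10 genes ran from -1.14 to -0.47, and was -0.57 by limma-voom. With a library left out, Tlr3 ran from -0.076 to 0.25 by edgeR, and was negative by DESeq2 without Apoe library 1 (-0.088) or 2 (-0.024) and Sept2C111A library 1 (-0.056) or 2 (-0.0068). Sign changes were also seen for Tlr5 (-1.39 to 0.089, and 0.078 by DESeq2 without Apoe library 1), Cd180 (-0.76 to 0.067, and 0.064 by DESeq2 without Apoe library 3) and Tirap (-0.68 to 0.011). The median of the inhibitors turned to 0.079 by limma-voom. That of the induced cytokines and enzymes was -2.89 with the filter at a mean count of 50, which left out Tnf, Il1a, Ccl5 and Nos2. The cause of the other shifts was not tested. The signs of the other 9 genes were kept under every alternative. The replicate numbers gave no pairing: same-numbered libraries deviated with correlations of 0.02, 0.12 and -0.17, and the replicate block left 0 of the 10 genes and 0 of all genes called, with a median of -0.81 over the 10 genes. At least 63.2 expected counts stood behind each value of the 10 genes, with Tlr6 the lowest.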
